A study of Mus musculus with 3 samples.

Results

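A set of 10 named genes of the antioxidant defence was followed in skeletal muscle of young and aged mice: Srxn1, Nqo1, Hmox1, Gclc, Gclm, Txnrd1, Prdx1, Prdx6, Sod1 and Cat. They were picked by gene symbol and are 10 of the 42258 genes in each table. The list is named for Srxn1, whose level differed most among the 10 between young and aged muscle in these same libraries, so its values describe the choice and support nothing further. RNA sequencing was run on gastrocnemius and plantaris muscle of male mice, with RNA pooled within each group so that each of the 3 groups is 1 library. The young library pooled 3 mice aged 24 weeks, labelled strain C57BL/7J, with no diet given. The aged control library pooled 6 C57BL/6J mice aged 87 weeks that had eaten a diet deprived of EPA (eicosapentaenoic acid, a fish-oil fatty acid) for 12 weeks from 75 weeks of age. The aged EPA library pooled 6 C57BL/6J mice of the same age that had eaten a diet holding 1% EPA by weight over the same weeks. Age therefore cannot be told apart from the strain label and diet of the young mice.

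With 1 library per group there is no replicate spread, and no test between conditions was possible. Levels are CPM (counts scaled to 1000000 per library) as deposited. A change is the difference of log2(CPM + 1), called past 2-fold, among the 12966 genes whose mean over the libraries reached 1 CPM. All 10 genes passed that filter. The intervals given are exact 95% intervals (Clopper-Pearson) of the ratio of whole counts recovered from the CPM, each over its library's own total, and they cover counting error only. The libraries held 57386394 (young), 57622886 (aged control) and 55969822 (aged EPA) counts, and 3 counts, the limit that a count of 0 allows, came to between 0.0521 and 0.0536 CPM. The tissue label was checked on 11 muscle fibre markers, Acta1, Ckm and Myh4 among them, which summed to 101743, 116386 and 116114 CPM in young muscle and in aged muscle without and with EPA. The aged control and young libraries each enter 2 of the 3 comparisons, so the comparisons are not independent of each other.

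NRF2, encoded by Nfe2l2, is a transcription factor that KEAP1 binds and hands to a ubiquitin ligase for destruction. Electrophiles and oxidants modify cysteines of KEAP1, NRF2 then accumulates, pairs with small MAF proteins and binds antioxidant response elements near its target genes. Its targets make glutathione, reduce thioredoxin, degrade haem and detoxify quinones. Peroxiredoxins reduce hydrogen peroxide through a reactive cysteine, and an excess of peroxide can drive that cysteine to a sulfinic acid that no longer reacts. Sulfiredoxin, the product of Srxn1, uses ATP to turn the sulfinic acid of typical 2-Cys peroxiredoxins back. Contracting muscle makes superoxide and hydrogen peroxide, which superoxide dismutase and catalase remove.

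The promoters of Srxn1 and of Prdx1, which encodes a substrate of sulfiredoxin, are shown because they carry the same kinds of short elements while the 2 genes stood on opposite sides of the age comparison. Each window is RefSeq sequence of GRCm38.p6 on the plus strand, from 250 bases before the annotated start to 50 after it. The Srxn1 window is chr2:152105274-152105573 and the Prdx1 window is chr4:116685349-116685648. Capitals mark matches on either strand to the antioxidant response element core TGACNNNGC, to its G form TGAGNNNGC and to the AP-1 element TGANTCA.
Srxn1: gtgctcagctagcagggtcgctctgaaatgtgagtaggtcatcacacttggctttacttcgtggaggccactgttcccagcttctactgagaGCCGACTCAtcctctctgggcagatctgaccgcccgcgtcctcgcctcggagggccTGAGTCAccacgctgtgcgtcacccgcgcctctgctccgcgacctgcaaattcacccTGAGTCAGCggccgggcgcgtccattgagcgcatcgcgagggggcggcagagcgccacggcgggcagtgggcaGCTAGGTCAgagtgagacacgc
Prdx1: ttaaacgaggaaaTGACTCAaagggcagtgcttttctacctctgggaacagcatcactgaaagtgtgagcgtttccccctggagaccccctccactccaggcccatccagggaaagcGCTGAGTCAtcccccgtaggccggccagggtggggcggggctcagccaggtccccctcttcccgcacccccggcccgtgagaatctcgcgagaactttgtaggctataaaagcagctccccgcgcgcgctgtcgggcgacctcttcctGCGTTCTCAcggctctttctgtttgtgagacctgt
The Srxn1 window held 2 AP-1 matches, whose first bases lie at -102 and -45 from the start. It also held G-form matches at -158 and -45, the latter spanning the AP-1 match there, and 1 core match at 29 on the minus strand. The Prdx1 window held AP-1 matches at -237 and -131, the latter inside a minus-strand core match at -133, and a G-form match at 16.

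Of the 10 genes, 7 matched the RefSeq promoter table, and Hmox1, Gclc and Prdx6 did not. The core was present for 5 of these 7 genes, namely Srxn1, Gclm, Txnrd1 (in the second of its windows), Prdx1 and Sod1. Among all 32851 windows of this length, 12.4% held the core, 17.6% the G form and 7.81% the AP-1 element. Counted per gene, as the 7 were, the shares of 27025 genes with a match in at least 1 window were 14.0%, 19.8% and 8.97%. At least 2 AP-1 matches stood in 0.460% of all windows, those of Srxn1 and Prdx1 among them. The planned search covered presence of an element and not a number of matches, so nothing is read from that share. The windows of Nqo1 and Cat held none of the 3 motifs. The G form was added to the search after the sequences had been seen. A match describes letters in these windows and no binding was measured.

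Srxn1 (ENSMUSG00000032802, chr2:152105516-152111376 on the plus strand of GRCm38) measured 8.20 CPM in the young library, 35.5 CPM in the aged control library and 31.9 CPM in the aged EPA library. Both aged libraries were high and the young one was low. On the log2(CPM + 1) scale, aged control muscle was 1.99 above young muscle, and only 19 of the 12966 genes compared had a larger change. The counts were 463, 2039 and 1788, which gave a log2 count ratio of aged control to young of 2.13 (interval 1.99 to 2.28). As a plain ratio of CPM, Srxn1 stood 4.33-fold above its young level with the control diet and 3.89-fold above it with EPA.

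Of the 10 genes, Srxn1 alone passed 2-fold with age. Across all compared genes 0.895% lay past 2-fold on the higher side and 0.841% on the lower side in that comparison, 1.74% in all. Because Srxn1 was chosen for this difference, nothing is read from the count. Its neighbour toward lower coordinates, Scrt2, had 0 counts in every library, and the neighbour on the other side, Tcf15, a transcription factor gene, stood at 19.1 CPM in young, 12.4 in aged control and 11.2 in aged EPA muscle. No annotated gene overlaps Srxn1.

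Each of the other 9 genes was lower in the aged control than in the young library, with log2 changes between -0.48 and -0.17 and a median of -0.32. With Srxn1 included the count was 1 higher and 9 lower and the median was -0.31, against a median of -0.01 over all compared genes, of which 52.4% were lower and 47.5% higher. None of these 9 reached 1.5-fold, a distance that 5.24% of all compared genes passed in either direction. All 9 counting intervals lay below 0. The share of all compared genes with such an interval is not given here, so nothing is read from that count. The changes of all 9 lay within the range of -0.59 to 0.61 that held the central 95% of the compared genes. Muscle was sequenced whole, so fewer cells of a type and less RNA per cell cannot be told apart. Markers of red blood cells, which also hold Prdx1, Sod1 and Cat, were lower with age too: 5 of the 9 passed the filter and all 5 were lower, with a median change of -1.41. The 9 summed to 1509 CPM in young, 561 in aged control and 566 in aged EPA muscle, and Slc4a1 and Epb42 had 0 counts in the aged control library. Their part in the lower values of the 9 genes was not tested.

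**Figure D1:**
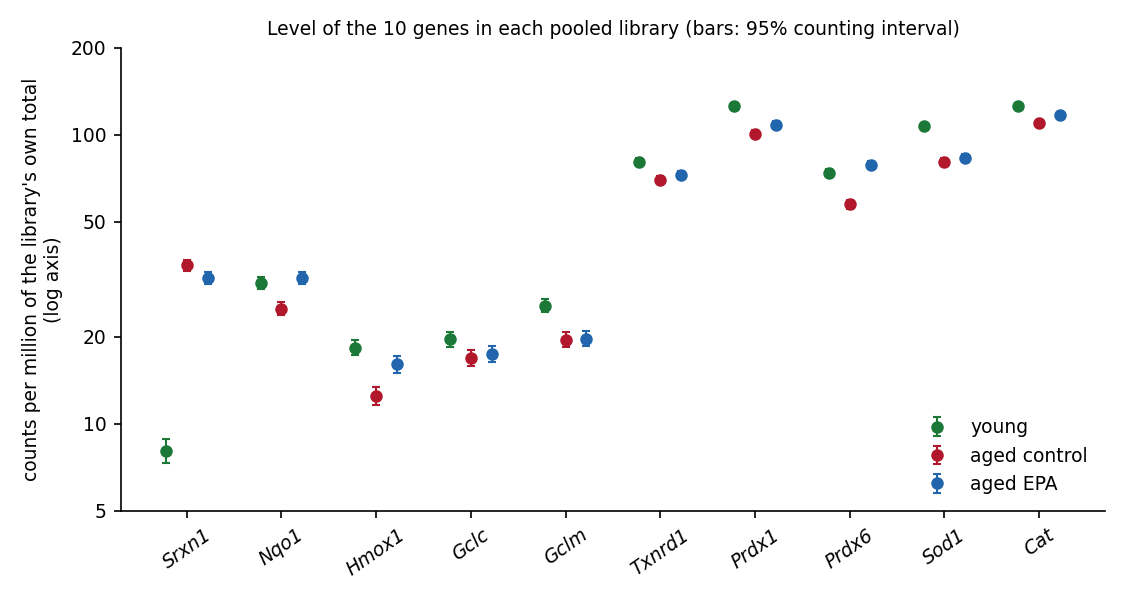
Level of each of the 10 genes in young, aged control and aged EPA muscle, as CPM over the library's own total on a log axis, with 95% counting intervals as bars. Srxn1 is low in the young library, and the other 9 genes are lower in the aged control than in the young library.

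Nqo1 and Hmox1 are standard NRF2 target genes. Nqo1 (ENSMUSG00000003849, chr8:107388225-107403206, minus strand) encodes a quinone reductase and measured 31.3 CPM in young, 25.1 in aged control and 32.0 in aged EPA muscle. The aged control library was low, and the aged EPA and young libraries could not be told apart by counting error. The log2 change was -0.31 with age and 0.34 between the diets. Hmox1 (ENSMUSG00000005413, chr8:75093621-75100589, plus strand) encodes haem oxygenase 1, which opens the haem ring, and measured 18.3 CPM in young, 12.8 in aged control and 15.9 in aged EPA muscle. It had the lowest change of the 10 with age, -0.48, and the log2 count ratio was -0.56 (interval -0.69 to -0.42). In aged EPA muscle Hmox1 lay between the other libraries, with a change of 0.29 against aged control and of -0.19 against young.

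Gclc and Gclm encode the catalytic and the modifier subunit of glutamate-cysteine ligase, the rate-limiting enzyme of glutathione synthesis. Gclc (ENSMUSG00000032350, chr9:77754535-77794485, plus strand) measured 19.5 CPM in young, 17.3 in aged control and 17.0 in aged EPA muscle. Gclm (ENSMUSG00000028124, chr3:122245557-122270732, plus strand) measured 26.1 CPM in young, 19.6 in aged control and 19.7 in aged EPA muscle. For both subunits the 2 aged libraries were close to each other and the young one was high. The change with age was -0.17 for Gclc and -0.39 for Gclm. Gm17494, a transcript on the opposite strand that overlaps Gclm, stood at 20.8, 13.7 and 22.4 CPM in young muscle and in aged muscle without and with EPA. Whether counting used strand is not given in the sources used here, so reads of Gclm and Gm17494 may have been mixed.

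Txnrd1 (ENSMUSG00000020250, chr10:82833951-82897712, plus strand) encodes the cytosolic thioredoxin reductase, a selenoenzyme, and measured 82.0 CPM in young, 69.7 in aged control and 72.2 in aged EPA muscle. The young library was high and the aged libraries were close to each other, with a change of -0.23 with age and 0.05 between the diets. Eid3, a protein-coding gene on the same strand, overlaps Txnrd1, as do Gm38560 and Gm47073 on the opposite strand. None of these was found among the genes measured, and reads from them may have been mixed with those of Txnrd1. Prdx1 (ENSMUSG00000028691, chr4:116685544-116700822, plus strand), a cytosolic typical 2-Cys peroxiredoxin, measured 129 CPM in young, 103 in aged control and 105 in aged EPA muscle. Its order, like those of Hmox1, Gclm, Txnrd1 and Cat, was the reverse of that of Srxn1. The change of Prdx1 was -0.32 with age and 0.03 between the diets. Prdx6 (ENSMUSG00000026701, chr1:161240112-161251219, minus strand) encodes the 1-Cys peroxiredoxin, which sulfiredoxin does not repair, and measured 73.4 CPM in young, 58.6 in aged control and 76.8 in aged EPA muscle. For Prdx6 the aged control library stood apart on the low side. The change was -0.32 with age and 0.38 between the diets, the largest between the diets among the 10 genes. Prdx6b and Prdx6-ps2, copies of Prdx6, had 0 counts in all libraries.

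Sod1 (ENSMUSG00000022982, chr16:90220754-90226329, plus strand) encodes the cytosolic copper-zinc superoxide dismutase and measured 109.5 CPM in young, 82.0 in aged control and 80.7 in aged EPA muscle. Its change with age was -0.41, and the aged libraries differed by -0.02. Scaf4, on the opposite strand, overlaps Sod1 and stood at 16.2, 16.7 and 16.2 CPM in young muscle and in aged muscle without and with EPA. Cat (ENSMUSG00000027187, chr2:103453849-103485160, minus strand) encodes catalase, which breaks down hydrogen peroxide in peroxisomes, and measured 128 CPM in young, 110.2 in aged control and 117 in aged EPA muscle. Its change was -0.22 with age and 0.08 between the diets.

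Levels were compared between genes only per kilobase of each gene's principal transcript. Averaged over the 3 libraries, Sod1 was highest at 141.6 CPM per kilobase, followed by Prdx1 at 49.0 and Cat at 45.3. Prdx6 (29.1), Txnrd1 (21.1), Nqo1 (19.0), Hmox1 (9.99), Srxn1 (8.96), Gclc (5.24) and Gclm (3.90) followed in CPM per kilobase. Srxn1 ranked 10 of 10 in young muscle, at 2.92 CPM per kilobase, and 7 of 10 in both aged libraries, at 12.6 in aged control and 11.3 in aged EPA muscle. In aged muscle Srxn1 thus stood above Hmox1, which it stood below in young muscle. Nqo1 and Txnrd1 were neighbours in the order and changed places, Nqo1 ranking 5 and Txnrd1 6 in the aged EPA library, at 20.6 and 20.4 CPM per kilobase.

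The second comparison concerned the diet in aged muscle. Srxn1 was slightly lower with EPA than with the control diet, with a log2(CPM + 1) change of -0.15 and a log2 count ratio of -0.15 (interval -0.24 to -0.06). None of the 10 genes was at least 2-fold apart, where 1.33% of all compared genes were (0.694% higher and 0.64% lower), and none reached 1.5-fold, where 3.6% did. Of the 10 genes, 7 were higher and 3 lower in aged EPA muscle, with a median change of 0.04 against -0.03 over all compared genes, of which 44.2% were higher. The 3 lower ones were Srxn1, Gclc and Sod1. For Gclc and Sod1 the direction depended on the scaling: over each library's own total both log2 ratios were 0.05, with intervals of -0.08 to 0.18 and -0.01 to 0.11, and the count became 9 higher and 1 lower. The share of all genes that were lower moved from 55.8% to 47.0% with that scaling. Counting intervals, taken over own totals, lay above 0 for 5 genes, Nqo1, Hmox1, Prdx1, Prdx6 and Cat, and below 0 for Srxn1. The share of all compared genes with an interval above or below 0 is not given here, so nothing is read from these counts.

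Against young muscle, aged EPA muscle had 3 of the 10 genes higher and 7 lower, with a median change of -0.18 against -0.04 over all compared genes, of which 56.7% were lower and 43.3% higher. Srxn1 was 1.84 higher (log2 count ratio 1.99, interval 1.84 to 2.14) and was again the single gene past 2-fold, where 1.6% of all compared genes were (0.802% on either side), and no other of the 10 passed 1.5-fold, where 5.36% did. Nqo1 and Prdx6 were 0.03 and 0.06 above their young level on the log2 scale. In the deposited CPM the aged control library held the lowest of the 3 values for 7 of the 10 genes and for 30.3% of all compared genes. The exceptions were Srxn1, lowest in young muscle, and Gclc and Sod1, lowest in aged EPA muscle. Over own totals the aged control library was lowest for 9 of the 10 genes and for 35.5% of all compared genes. For Gclc, Gclm, Txnrd1 and Sod1 the interval between the aged libraries included 0, so counting error alone could change which of them was lowest.

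**Figure D2:**
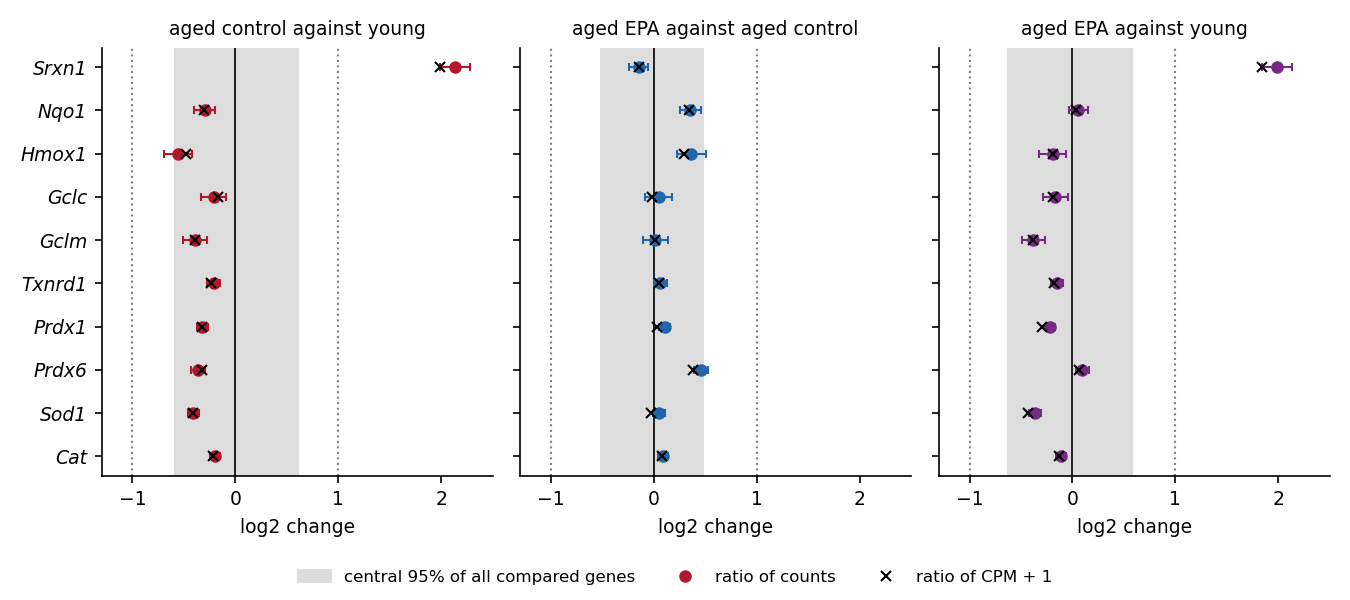
Log2 change of the 10 genes in each of the 3 comparisons, as the ratio of counts over own totals (circles, bars 95% counting intervals) and as the ratio of CPM + 1 (crosses); the grey band holds the central 95% of all compared genes and dotted lines mark 2-fold. Srxn1 lies past 2-fold in both comparisons with young muscle, and the points of the other 9 genes lie inside the grey band in each panel.

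The other genes of the sulfiredoxin reaction did not share the direction of Srxn1. All 4 typical 2-Cys peroxiredoxins were lower in aged control than in young muscle, where 52.4% of all compared genes were, with a median change of -0.17. Prdx2, the second cytosolic form, measured 78.3 CPM in young, 77.1 in aged control and 73.2 in aged EPA muscle, and its count ratio with age included 0. Prdx3, the mitochondrial form, measured 145.8, 134.7 and 140.0 CPM in the same order. Prdx4, the form of the endoplasmic reticulum, measured 5.29, 4.41 and 3.70 CPM. The log2 changes of the 4 substrates lay between -0.32 and -0.02 in aged control muscle, where Srxn1 was 1.99 higher.

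For the NRF2 switch itself, the transcripts of the activator and of its inhibitor were on opposite sides of the age comparison. Nfe2l2 measured 59.8 CPM in young, 65.9 in aged control and 68.9 in aged EPA muscle, a change of 0.14 with age. Keap1 measured 57.6, 48.7 and 52.8 CPM, a change of -0.24 with age that was larger than those of Gclc, Txnrd1 and Cat, and Bach1, which encodes a repressor at the same elements, measured 37.9, 39.3 and 35.1 CPM. The transcript of NRF2 leaves its protein level unmeasured. Over all compared genes 52.4% were lower with age and 1.74% lay past 2-fold. Of the 13 regulators 6 were higher and 7 lower in aged control muscle, near that share, with a median of 0.00 and 1 gene past 2-fold. That gene was Nfe2l1, which encodes a related factor that also binds antioxidant response elements, at 387 CPM in young, 118 in aged control and 274 in aged EPA muscle. The aged control library stood alone on the low side, with a log2 change of -1.71 against young, and aged EPA muscle was 1.21 above it.

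**Figure D3:**
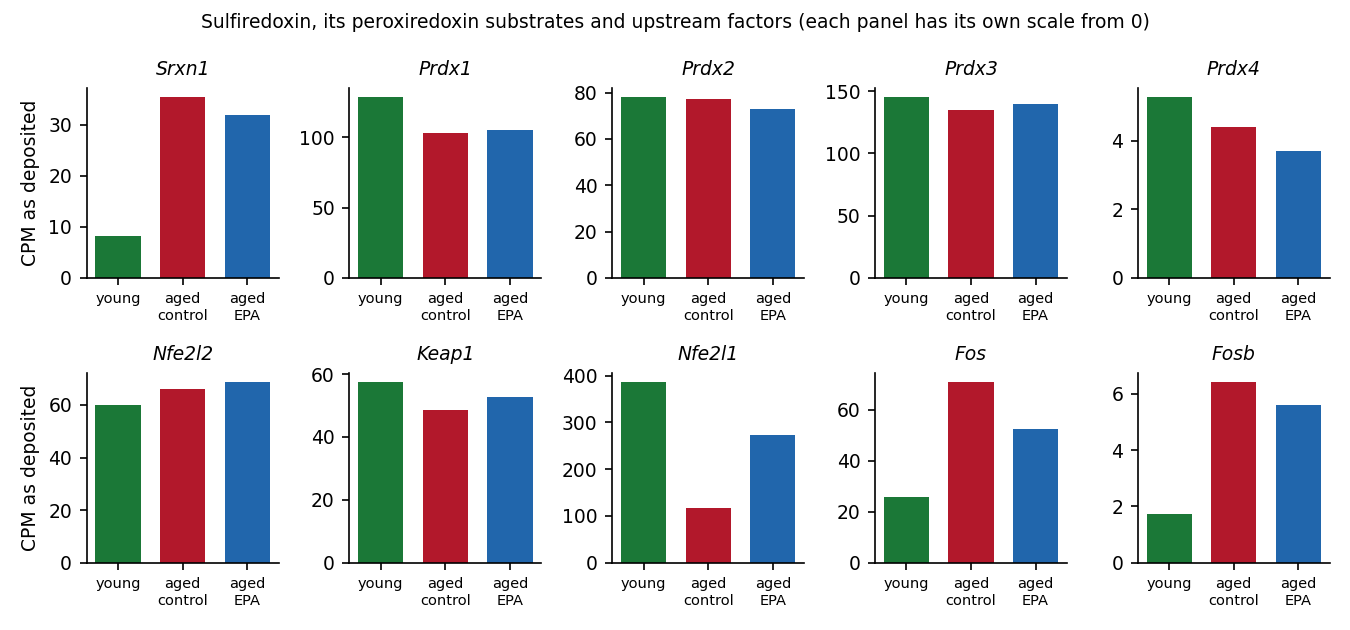
Deposited CPM of Srxn1, its 4 peroxiredoxin substrates and 5 transcription factor genes or regulators in young, aged control and aged EPA muscle, each panel with its own axis from 0 and 1 bar per pooled library. Srxn1, Fos and Fosb are low in the young library, Nfe2l1 is low in the aged control library, and the peroxiredoxins are highest in the young library.

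AP-1, a dimer of FOS and JUN family proteins, binds the TGANTCA element counted in the promoter windows. In the deposited CPM all 8 AP-1 subunit genes were higher in aged control than in young muscle, where 47.5% of all compared genes were, with a median change of 0.16. Over own totals 7 of the 8 were higher, Fosl2 (0.01 in the deposited CPM) being lower. Counting intervals were taken for Fos, Fosb, Junb and Atf3 only, and that of Junb included 0. Fos measured 25.8 CPM in young, 71.0 in aged control and 52.5 in aged EPA muscle, and Fosb measured 1.72, 6.44 and 5.60 CPM. Both were past 2-fold with age, at 1.43 and 1.45 on the log2 scale, and in both the young library was low. Between the diets 1 of the 8 was higher, where 44.2% of all compared genes were, with a median of -0.07. Over own totals 4 of the 8 were higher. In 58 genes (0.447% of those compared) the young library lay at least 2-fold below both aged libraries, themselves within 1.5-fold of each other. Srxn1, Fos and Fosb were among them, and Srxn1 was chosen for its difference with age. Prdx1, whose window also held 2 AP-1 matches, had a change of -0.32 with age. A link between AP-1 and the level of either Srxn1 or Prdx1 was not tested.

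Other NRF2 target genes were mixed. Of 29 listed, 24 passed the filter, and 9 were higher and 15 lower in aged control muscle, with a median of -0.05 and none past 2-fold. Over all compared genes 52.4% were lower and 1.74% lay past 2-fold. Ugdh, which makes UDP-glucuronate for conjugation, measured 10.5 CPM in young, 14.9 in aged control and 13.7 in aged EPA muscle. Txn1, the cytosolic thioredoxin, measured 38.6, 27.5 and 26.1 CPM, low in both aged libraries. Osgin1, an oxidative stress response gene, measured 16.2, 13.3 and 4.28 CPM. Its aged EPA value stood apart from both others, with a log2 change of -1.44 against aged control and counts of 934, 753 and 246.

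The list counts that follow stand beside all compared genes, of which 52.4% were lower with age, with a median of -0.01. Of 18 genes of glutathione synthesis, recycling and peroxidases, 13 were lower and 5 higher in aged control muscle, with a median of -0.21. Gpx7, a peroxidase of the endoplasmic reticulum, measured 6.46 CPM in young, 4.41 in aged control and 4.37 in aged EPA muscle. Chac1, which degrades glutathione, measured 94.5, 83.2 and 120.3 CPM, so aged EPA muscle was high, 0.53 above aged control. Of 14 glutathione transferases that passed the filter, 11 were lower with age, but the median of -0.04 was close to that of all genes and turned positive when the trend with transcript length was subtracted. Between the diets 12 of these 14 were higher in aged EPA muscle, where 44.2% of all compared genes were, with a median of 0.05.

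In the thioredoxin and peroxiredoxin system 15 of 17 genes were lower with age (14 over own totals), with a median of -0.11. Msrb1, a selenoenzyme that repairs oxidised methionine, measured 104 CPM in young, 70.4 in aged control and 84.1 in aged EPA muscle. The superoxide dismutases beside Sod1 differed less: Sod2, the mitochondrial enzyme, measured 224.7, 198 and 190.4 CPM, and Sod3, the extracellular enzyme, 29.8, 29.1 and 26.7 CPM. Of 13 genes that supply NADPH, the reductant of these systems, 9 were lower with age, with a median of -0.09. Idh1, cytosolic isocitrate dehydrogenase, measured 21.3, 16.4 and 20.9 CPM, lowest in aged control muscle as Nqo1 and Prdx6 were. Nnt, the mitochondrial transhydrogenase, measured 43.2, 54.6 and 47.4 CPM, high in aged control muscle. Of 12 genes of haem and iron handling, 7 were lower with age, a share near that of all genes, with a median of -0.04. Tfrc, the transferrin receptor, measured 88.5, 67.6 and 64.5 CPM.

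Over the 155 genes of these lists and the 10 together, 58 were higher and 97 lower in aged control than in young muscle, where 52.4% of all compared genes were lower. Those at least 2-fold apart were Srxn1, Fos and Fosb on the higher side and Nfe2l1 on the lower, 4 of 155. Over all compared genes 1.74% were that far apart. Srxn1 was chosen for its difference with age, and the lists with earlier results of these data known, so nothing is read from that count. Between the diets 77 were higher and 78 lower, where 55.8% of all compared genes were lower, with Nfe2l1 past 2-fold on the higher side and Osgin1 on the lower. These 2 of 155 are near the share of all compared genes, 1.33%.

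**Figure D4:**
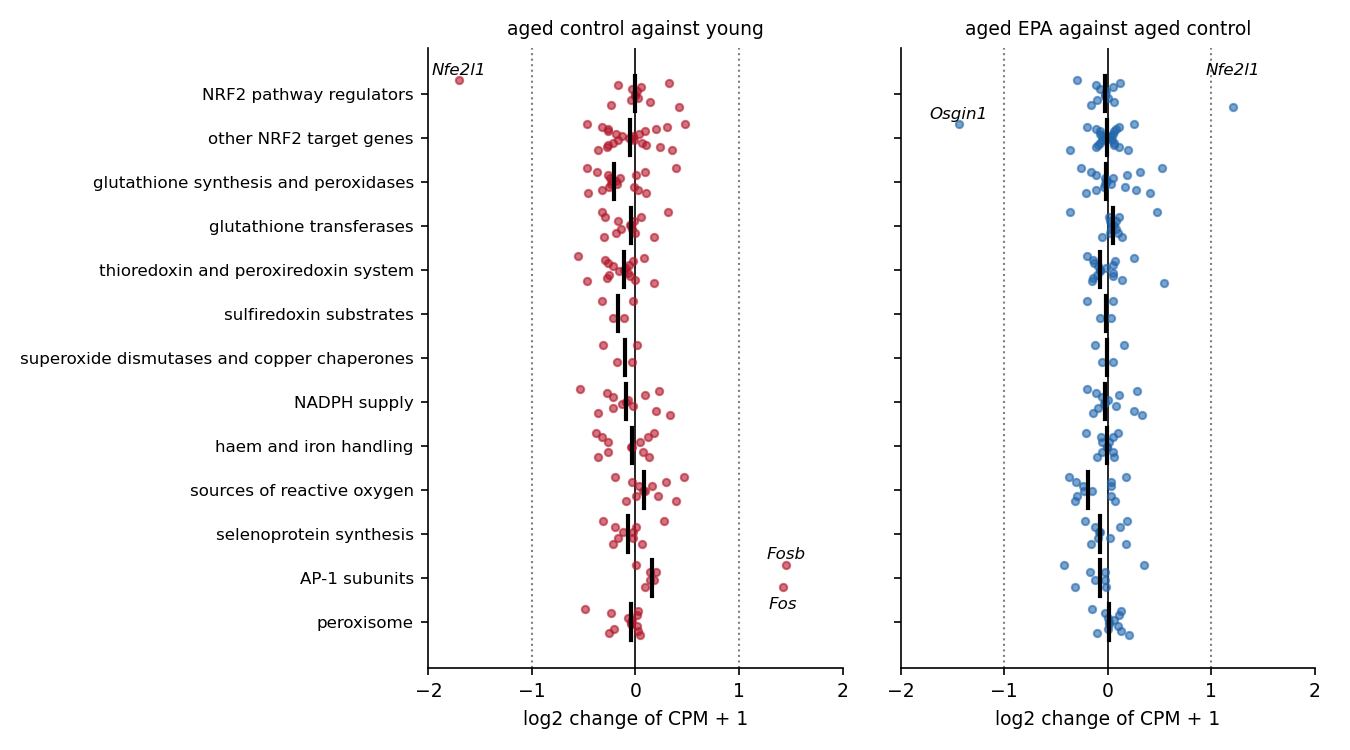
Log2 change of CPM + 1 of each compared gene (dots) in 13 gene lists of the antioxidant system, with the median of each list as a black bar and dotted lines at 2-fold, for aged control against young and aged EPA against aged control. Fos and Fosb lie past 2-fold higher and Nfe2l1 past 2-fold lower with age, and between the diets Nfe2l1 lies higher and Osgin1 lower.

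For comparison, 5 genes were named as most like Srxn1, by the distance between log2(CPM + 1) values centred over the 3 libraries, among 9230 genes whose mean reached 5 CPM. Lifr, the receptor of leukaemia inhibitory factor, was nearest at 18.8 CPM in young, 71.8 in aged control and 67.2 in aged EPA muscle. Mgll, monoacylglycerol lipase, measured 26.3, 96.5 and 87.8 CPM. Cyren (3.41, 15.9 and 16.1 CPM), Vps26a (15.4, 54.1 and 51.5 CPM) and Plekhm3 (2.66, 11.1 and 11.1 CPM) followed. In all 5 the young library was low and the aged libraries were close to each other. Likeness over 3 points describes these libraries and no more.

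Change with age moved with transcript length across all genes, so the lengths of the 10 genes were set beside those of all compared genes. Spearman's rho between length and change was 0.285 for aged control against young and -0.217 for aged EPA against aged control, over 12966 genes that share the same libraries. The median length was 2500 bases for the 10 genes and 2924 for all compared genes, and 7 of the 10 lay below the latter. At the length of Srxn1 the trend amounted to -0.01. With the trend subtracted the other 9 were still lower with age, Sod1 at -0.23 in place of -0.41 and Gclm at -0.45.

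**Figure D5:**
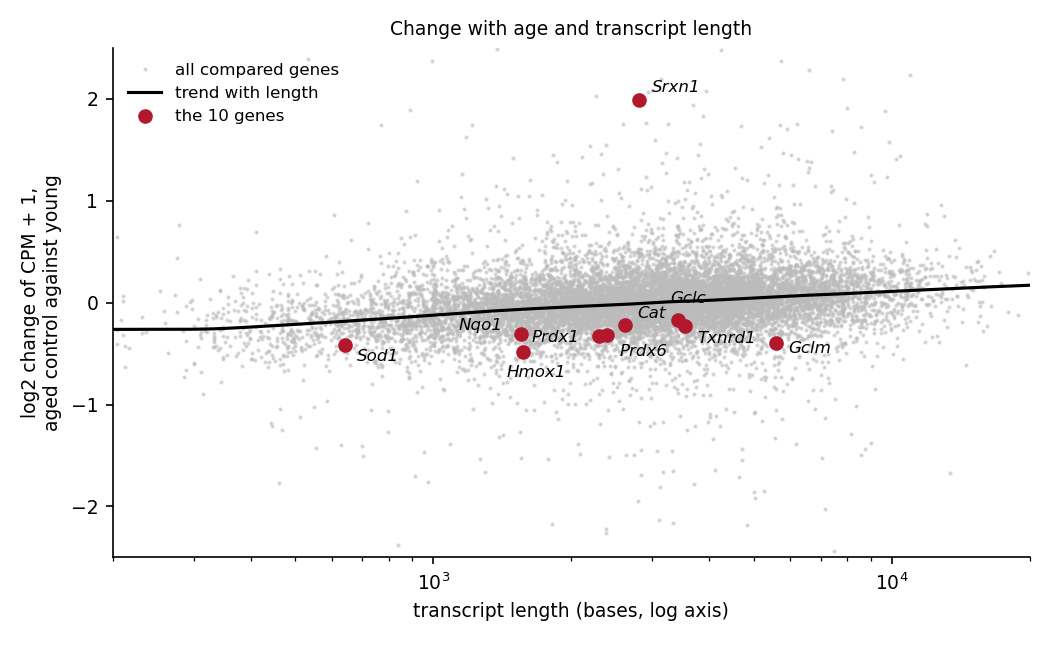
Log2 change of CPM + 1 in aged control against young muscle, by transcript length in bases on a log axis, for all compared genes (grey), the 10 genes (red) and the trend over all genes (line); 74 genes lie outside the axes. Srxn1 lies far above the trend and the other 9 genes below it.

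Markers of other cell types were set beside these results. Over all compared genes 52.4% were lower with age, and 44.2% were higher and 55.8% lower between the diets. Of 10 endothelial markers 8 were lower with age (582, 486 and 446 CPM summed). Of 10 adipocyte markers 9 passed the filter. With age 8 of these were lower and Lep was higher, and all 9 were higher in aged EPA than aged control muscle. The 10 summed to 2608, 2310 and 2472 CPM, of which Car3 alone gave 2138, 1996 and 2105 CPM. Macrophage markers were split 6 to 6 with age (331, 339 and 354 CPM). In aged EPA against aged control muscle 9 of these 12 were higher and 3 lower (median 0.05), and 10 were higher over own totals. None of the 8 neutrophil markers passed the filter. Of these, Ly6g, Mpo, Camp and Ngp were at 0 in every library, while S100a9 measured 0.339, 0.690 and 1.37 CPM and the 8 together summed to 0.675, 1.48 and 2.21 CPM, highest with EPA. Between the diets all 8 Schwann cell markers were higher in aged EPA muscle (median 0.20; 171, 174 and 192 CPM summed). All 8 smooth muscle and pericyte markers were lower (median -0.20; 696, 689 and 599 CPM summed), 7 of the 8 over own totals. Of 9 fibroblast markers 5 were lower with age, near the share of all compared genes (3062, 2919 and 2991 CPM summed). In aged EPA against aged control muscle 7 were lower, a count that became 5 over own totals. The part of these cell types in the levels of the 10 genes was not tested.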

How the data were processed

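Total RNA from gastrocnemius and plantaris muscle was pooled by group and sequenced, 1 library per group. Per the submitters' processing notes the tools were HISAT2 2.1.0 and StringTie 1.3.4d, R was version 3.5.0 and the genome build was GRCm38, while the counting step and annotation are not given in the sources used here. The authors deposited CPM per gene (counts scaled to 1000000). These CPM became whole counts, within 3.03e-09, when multiplied by 1 of 5 divisors that alternated from gene to gene, and the deposited values lay between -2.98% and 2.84% of CPM over a library's own total.

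Changes were differences of log2(CPM + 1) among 12966 symbols with a mean of at least 1 CPM, after 63 rows with a repeated symbol had been summed by symbol. No test was run, since each group is 1 library. Gene positions and lengths came from GENCODE M21 (42170 rows matched) and promoters from RefSeq. Alternatives were pseudocounts of 0.1 and 5, filters, other scalings, a 1.5-fold threshold and subtraction of the length trend. All 10 genes were named, with up to 4 genes per list by largest range, the 4 sulfiredoxin substrates, Nfe2l2, Keap1 and Bach1, neighbouring genes and the 5 genes most like Srxn1. The genes and lists were chosen with earlier results of these data known. Scripts were tested on simulated data and run in Python 3.11.15 with numpy 2.4.6, pandas 2.3.3, scipy 1.17.1, statsmodels 0.14.6 and matplotlib 3.10.9.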

Additional observations from a re-analysis of the deposited data

How the results depend on the processing

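Srxn1 was past 2-fold in both comparisons with young muscle under every alternative run, and with a pseudocount of 5 its log2 change was 1.62 in aged control and 1.48 in aged EPA muscle. The number of the 10 genes past the fold threshold stayed at 1, 0 and 1 in the comparisons of aged control with young, aged EPA with aged control and aged EPA with young, also with a 1.5-fold threshold. The number of all genes past it was 225, 173 and 208 in that order, and it became 346, 264 and 348 with a pseudocount of 0.1, 104, 78 and 94 with a pseudocount of 5, and 679, 467 and 695 with a 1.5-fold threshold. With a mean of at least 5 CPM it was 111 for aged EPA against aged control and 138 for aged EPA against young. With age the 10 genes stayed 1 higher and 9 lower under each scaling. Between the diets they were 9 higher and 1 lower over own totals or scaled by the median of ratios, and 8 and 2 with TMM (trimmed mean of M values) or the length trend subtracted. Of 39 list medians 14 changed sign under at least 1 alternative, 9 of them between the diets. No paired analysis was possible because each group is 1 pooled library, and for the same reason no replicate could be left out. The lowest count behind any of the 10 genes was 463, for Srxn1 in young muscle.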

Other observations

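Lists beside the antioxidant enzymes gave the following values. Of 12 genes that produce superoxide or hydrogen peroxide, 9 were higher and 3 lower in aged control than in young muscle, with a median change of 0.09, against -0.01 over all compared genes, of which 47.5% were higher. Over each library's own total 7 of the 12 were higher. Maoa, the mitochondrial monoamine oxidase, measured 7.42 CPM in young, 10.1 in aged control and 10.3 in aged EPA muscle, and Rac2, a small GTPase of the phagocyte oxidase, measured 2.50, 3.85 and 2.76 CPM. Between the diets 7 of the 12 were lower, where 55.8% of all compared genes were. Their median of -0.19 became 0.03 when a mean of at least 5 CPM was required.

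Of 10 genes of selenoprotein synthesis and storage, 7 were lower with age, where 52.4% of all compared genes were, with a median of -0.07. Selenow, a small selenoprotein abundant in muscle, measured 847, 682 and 770 CPM. The aged control library was lowest, as it was for 7 of the 10 genes and 30.3% of all compared genes. Of 13 genes of the peroxisome, the compartment of catalase, 8 were lower with age (median -0.04) and 10 were higher in aged EPA than aged control muscle (median 0.02), beside 52.4% lower and 44.2% higher over all compared genes. Ehhadh, an enzyme of peroxisomal beta-oxidation, measured 8.41, 5.69 and 5.75 CPM, low in both aged libraries. Nfat5, the neighbour of Nqo1 toward lower coordinates, measured 52.3, 15.7 and 37.0 CPM, so that like Nfe2l1 it was low in the aged control library alone. An aged control value at least 2-fold below both other libraries, themselves within 1.5-fold of each other, was found for 50 genes (0.386% of those compared).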
